A study of Mus musculus with 6 samples.

Results

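The regions described here are the chromosomal neighbourhoods of Runx1, Runx2 and Runx3, the genes of the RUNX family of transcription factors, as seen by T-bet ChIP-seq in mouse iTreg cells, regulatory T cells induced in culture. Members were all peaks that overlapped one of 3 windows of the mouse build mm9: chromosome 16 from 92500000 to 92950000 for Runx1, chromosome 17 from 44550000 to 45000000 for Runx2, and chromosome 4 from 134580000 to 134800000 for Runx3. Of 8925 peaks in the 3 deposited lists, 32 were members. None of the 78 peaks of the T-bet knockout (KO) list lay in a window, whereas 28 of the 7996 peaks of wild-type (WT) replicate 1 and 4 of the 851 peaks of WT replicate 2 did.

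RUNX proteins bind DNA through their runt domain together with the partner subunit CBFβ, and they activate or silence genes depending on the cofactors they recruit. Runx1 is required for blood cell formation and is a partner of Foxp3 in regulatory T cells. Runx3 silences Cd4 in cytotoxic T cells and cooperates with T-bet at Ifng and Il4 in T helper 1 cells, while Runx2 is best known as the regulator of bone formation. Each gene has a distal and a proximal promoter, and much of the control of Runx1 is exerted by enhancers within its long introns.

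The KO group comprised 1 ChIP library from T-bet-KO iTreg cells, and the WT group 2 ChIP libraries from WT iTreg cells. All cells came from Balb/c mice of 4 to 10 weeks. Naive CD4 T cells were activated on plates coated with anti-CD3 and anti-CD28, at 10 µg/ml each, and grown for 7 days with TGF-β1 at 33 ng/ml and IL-2 at 20 ng/ml. Chromatin of both genotypes was precipitated with the same rabbit serum against T-bet, so the KO library serves to record what the serum pulls down without its target. The labels do not name the KO allele, and they do not say whether the WT replicates came from separate mice or cultures. None of the cells were regulatory T cells taken from a tissue. The series also has 3 input libraries, which were not analysed here.

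The letters under the mm9 peaks could not be read, since no genome of that build was used. The promoters of the genes themselves can be shown, and a sequence feature joins them. The RefSeq promoter table, on build GRCm38.p6, holds 2 start sites for Runx1, 1 for Runx2 and 2 for Runx3, each as 250 bases before the start and 50 after it. The longest run of letters common to the upstream promoters of Runx1 and Runx3 and the listed promoter of Runx2 was 18 bases long and held ACCACA, the core letters of the RUNX motif, 2 times in the same orientation. It stands in capitals within 30 bases of each promoter, written 5′ to 3′ on the gene's own strand.
Runx1, chr16:92826025-92826054, minus strand: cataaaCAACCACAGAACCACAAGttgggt
Runx2, chr17:44814583-44814612, minus strand: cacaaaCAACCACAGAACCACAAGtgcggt
Runx3, chr4:135120503-135120532, plus strand: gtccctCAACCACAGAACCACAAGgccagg

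These 3 positions are GRCm38.p6 and must not be set against the mm9 peak positions. The stretch began at base 27 after the start in Runx1, at base 22 in Runx2 and at position -136 in Runx3. Over the 30 bases, Runx1 and Runx2 were identical at 27, Runx2 and Runx3 at 21, and Runx1 and Runx3 at 19. Each of these counts includes the 18 bases of the stretch, which match by choice. Only the matches beyond 18 were free to vary. Of 32851 promoters in the table, 16.8% held ACCACA on either strand and 1.81% held it 2 or more times. The 18-base stretch was in 4 of them, or 0.0122%: those of the 3 Runx genes and of Gm16225, a transcript on the opposite strand whose promoter window overlaps the upstream one of Runx3. The stretch was taken from the Runx promoters, so its presence there was fixed in advance. The share shows only that no other promoter in the table held it. The downstream promoters of Runx1 and Runx3 held no ACCACA. The T-box core GGTGTGA was searched on both strands as well and is present in 3.98% of all promoters. It was in none of the 5 Runx promoters, which says nothing about T-bet binding elsewhere in the genes.

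The windows held 0 peaks in the KO list, 28 in WT replicate 1 and 4 in WT replicate 2. Runx1 had the most peaks with 15 in replicate 1 and 1 in replicate 2, followed by Runx2 with 10 and 3. Runx3 had 3 peaks in replicate 1 and none in replicate 2. Of the 4 sites in these windows present in both WT libraries, 3 were in the Runx2 window and 1 in the Runx1 window. As a share of replicate 1 peaks this was 30.0% (exact 95% binomial interval 6.67 to 65.2%) for Runx2. For Runx1 it was 6.67% (0.169 to 31.9%), against 9.50% of the whole replicate 1 list. These intervals overlap and both include the share of the list, so a difference between the 2 genes was not resolved. The windows were chosen with earlier results of these data known, and with 1 KO library no test across samples was possible, so all values that follow are descriptions. Peaks per list depend on sequencing depth, which is not known for any library. With scores of at least 100, 15 of the 28 replicate 1 peaks were left, against 4582 of all 7996, so the members were near the share of the list. All 4 replicate 2 peaks were left. The whole replicate 2 list has a median score of 108, so most of its peaks were left as well.

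**Figure D1:**
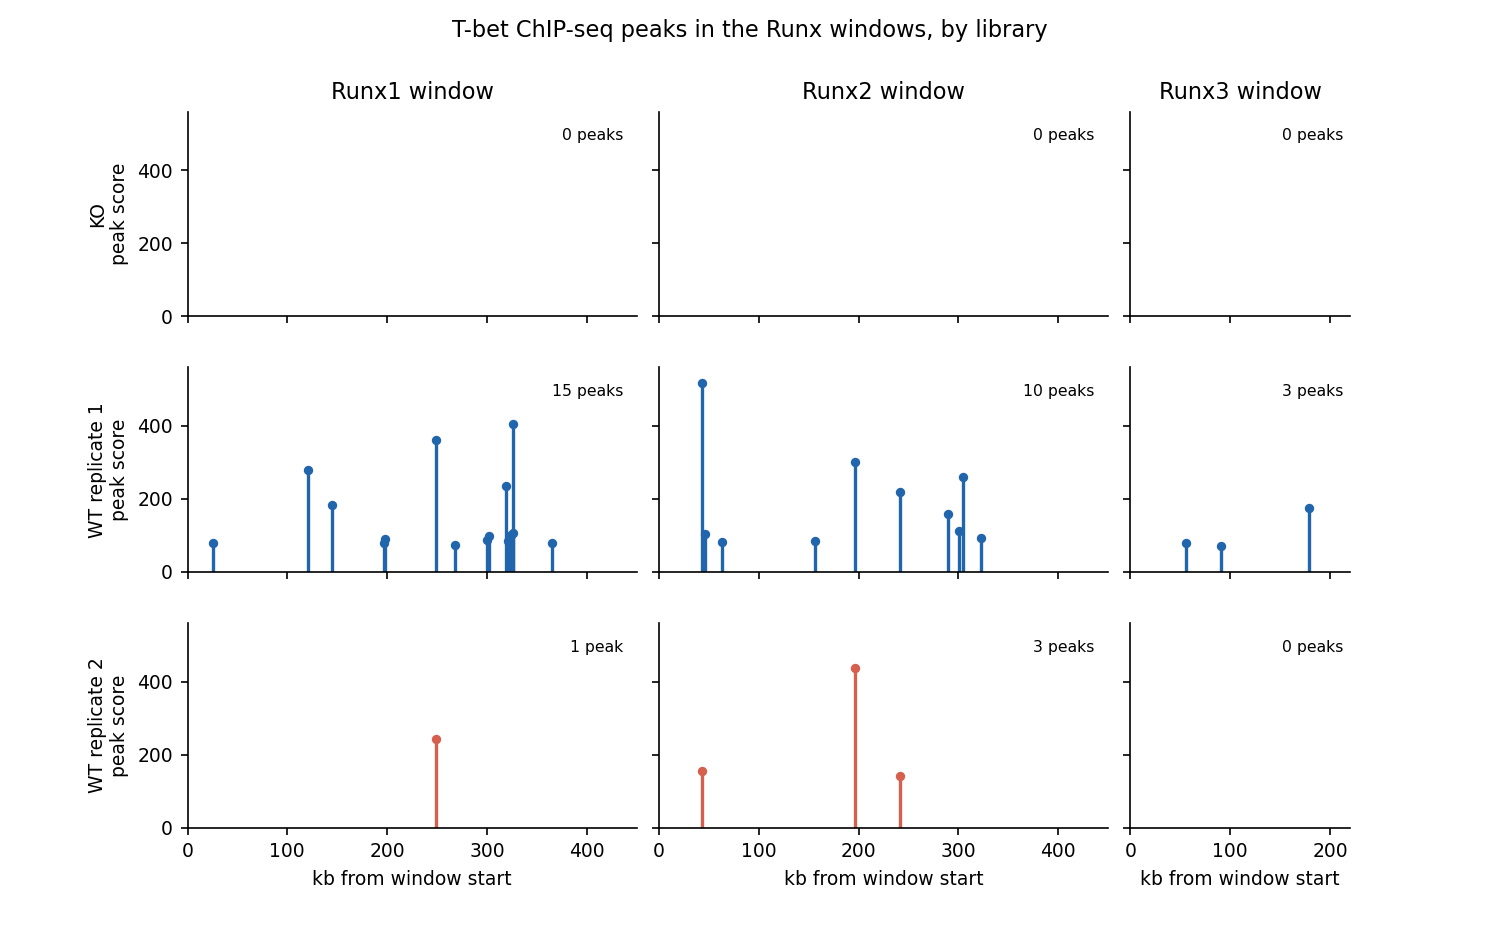
Peak score (vertical axis, the peak caller's value) against distance from the window start in kb (horizontal axis) for the KO library (top), WT replicate 1 (middle) and WT replicate 2 (bottom), with 1 column per window. Each line is 1 peak; the KO row is empty, and every WT replicate 2 peak stands at the place of a WT replicate 1 peak.

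The Runx2 window had sites in both WT libraries at 3 places. The first was common to both lists at chromosome 17, 44593248 to 44593483; no KO peak was there, and its score was 516.58 in replicate 1 and 155.08 in replicate 2. The middle site, 44745867 to 44746184, had scores of 300.68 and 437.10 in the same order, and the rightmost, 44791474 to 44791819, had 220.13 and 140.24. The score is the authors' value for each peak and has no stated scale, so it was read only as a rank within its own list. By rank, the first site stood at place 161 of 7996 in replicate 1 but only at place 211 of 851 in replicate 2. The middle site was the strongest Runx site of replicate 2, at place 14 of 851, and stood at place 591 in replicate 1. The rightmost was the weakest of the shared Runx sites in both lists, at place 1161 in replicate 1 and place 247 in replicate 2. These positions are the stretch common to both peaks, which was 236, 318 and 346 bp long at the 3 sites, and the peak midpoints lay 1.00, 14.5 and 20.5 bp apart. The sites were 152 kb and 45.2 kb apart in replicate 2, so the peaks of that list were spread over 199 kb and formed no close group.

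The Runx1 window had 1 such site. Its common stretch was chromosome 16, 92748520 to 92748878, with no KO peak and scores of 361.47 (replicate 1) and 242.04 (replicate 2). It ranked at place 385 of 7996 in replicate 1 and at place 75 of 851 in replicate 2, so it was among the stronger peaks of both libraries. The replicate 2 peak was 411 bp wide and covered the replicate 1 peak of 359 bp completely. Both lists thus placed it within 26.0 bp by midpoint.

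Replicate 1 peaks that met a replicate 2 peak and no KO peak numbered 4 of 28 in the windows, against 726 of 7996, or 9.08%, in the whole list. Among these 726, the Runx1 site ranked at place 200 by replicate 1 score and the Runx2 sites at places 85, 286 and 428. Of the 695 replicate 2 peaks that met a replicate 1 peak and no KO peak, the same sites held places 62, 190, 8 and 220 by replicate 2 score. The order of the 4 sites differed between the libraries: the leftmost Runx2 site led in replicate 1, and the middle Runx2 site led in replicate 2. In both, the Runx1 site came next after the leader and the rightmost Runx2 site came last.

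The remaining 24 members were seen in replicate 1 alone. Their median score was 96.4 and their median width 158 bp, against a score of 331 and a width of 344 bp for the 4 replicate 1 peaks at shared sites. The 726 replicate 1 peaks at shared sites of the whole genome had medians of 260 and 315 bp. Stronger and wider peaks at shared sites were thus not particular to the windows. Over the whole replicate 1 list the medians were 108 and 175 bp, so most of the unshared Runx peaks were of ordinary or low strength. Several were not. The strongest peak of the Runx1 window, at chromosome 16 from 92825738 to 92826133, scored 403.70 and had no counterpart in replicate 2, although it ranked at place 292 of 7996. Of the 293 replicate 1 peaks scoring at least as high, 171, or 58.4%, were met by replicate 2. The next unshared Runx1 peaks were at 92621009 to 92621349 with a score of 278.43 and at 92818821 to 92819057 with a score of 235.32. In the Runx2 window the highest unshared peaks scored 259.28, at 44855064 to 44855342, then 158.80, at 44839947 to 44840185, and 112.94, at 44851172 to 44851359.

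Runx3, the family member known as a partner of T-bet, had the fewest peaks and no shared site. Its 3 replicate 1 peaks lay on chromosome 4 from 134635758 to 134635913, from 134670398 to 134670548 and from 134759283 to 134759536. Their scores were 78.20, 71.80 and 175.56. The lowest score of the whole list was 70.1. By rank, the leftmost Runx3 peak outscored 10.6% of the list, the middle one 1.00% and the rightmost 77.5%. No Runx3 peak recurred in replicate 2, and the nearest replicate 2 peaks on that chromosome were 0.925 Mb to the left and 2.62 Mb to the right of the window. With 3 peaks and a list share of 9.50%, 0.285 recurring peaks would be found at the share of the whole list, so a count of 0 is what the background share gives at this number.

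**Figure D2:**
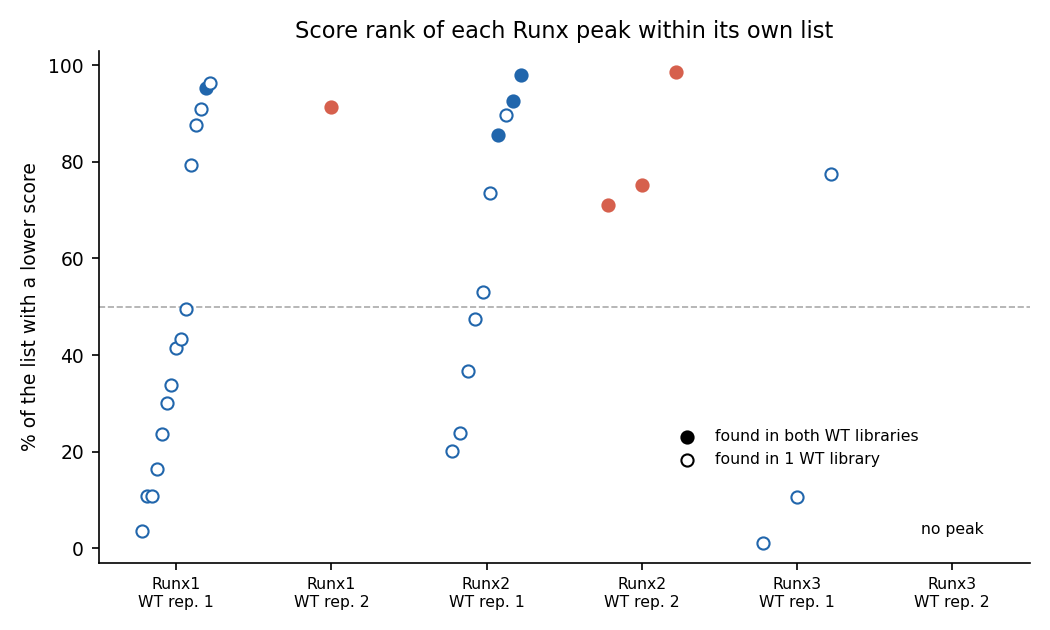
Percent of the peak's own list with a lower score (vertical axis) for each Runx peak, by window and WT library (horizontal axis). Filled points are peaks found in both WT libraries and open points peaks found in 1; the shared points all lie above 70%, while the open points of WT replicate 1 run from 1.00% to 96.4%.

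The median replicate 1 member outscored 45.4% of its list, or 74.7% where all scores were at least 100, and so was near the middle of the deposited list. The median replicate 2 member outscored 83.3% of its list.

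Recurrence between the WT libraries was compared with that of all peaks. Of the 28 replicate 1 members, 4, or 14.3% (exact 95% binomial interval 4.03 to 32.7%), met a replicate 2 peak, against 9.50% of all replicate 1 peaks. By gene, the share was 1 of 15, or 6.67%, for Runx1, 3 of 10, or 30.0% (6.67 to 65.2%), for Runx2 and 0 of 3 for Runx3. The interval was 0.169 to 31.9% for Runx1 and 0 to 70.8% for Runx3. Each interval includes the background of 9.50%, but all are wide. Whether a window differs from the list was therefore not resolved by this measure. With scores of at least 100 in both lists, 4 of 15 members, or 26.7% (7.79 to 55.1%), recurred, against 9.28% of the list so filtered. With replicate 1 shortened to the length of replicate 2, 3 of 6 members, or 50.0% (11.8 to 88.2%), did, against 46.3% of the shortened list. Both intervals include the share of the list at the same setting. In the other direction, all 4 replicate 2 members, or 100% (39.8 to 100%), met a replicate 1 peak, against 85.4% of the whole replicate 2 list. Intervals here and below cover counting error only, and peaks of 1 library are not replicates.

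Recurrence was most frequent among the highest scores of the whole replicate 1 list, so the members were also placed by score decile. The highest decile held 5 members, of which 3 recurred, against 47.1% of all its peaks. The ninth held 3, of which 1 recurred, against 16.5%. The other 20 members lay in lower deciles, where the share of all peaks was between 1.79% and 8.26%, and none of them recurred. Counts this small lie near the shares of the list.

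**Figure D3:**
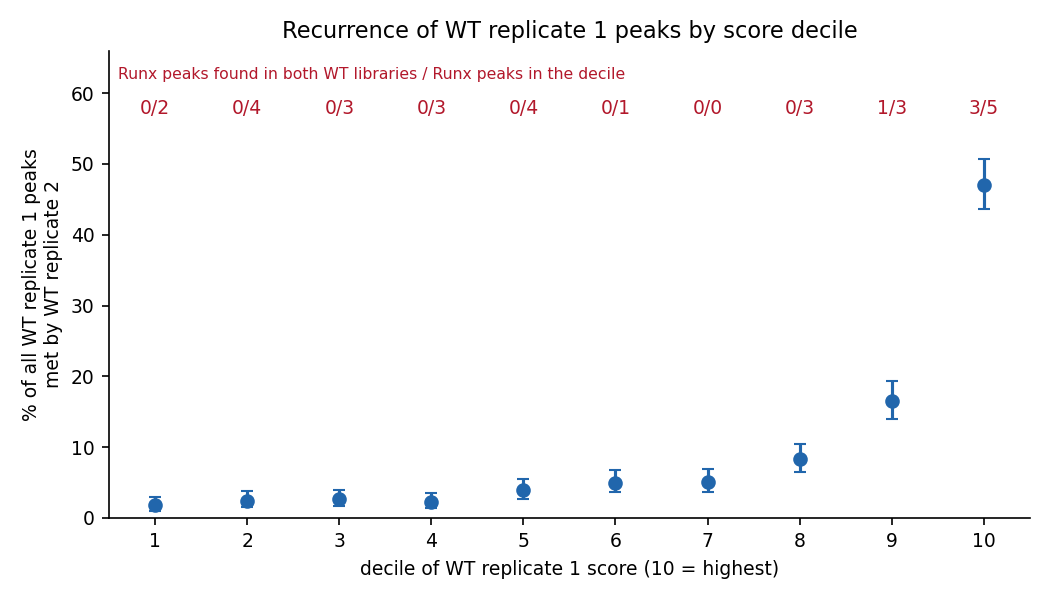
Percent of all WT replicate 1 peaks met by WT replicate 2 (vertical axis) by decile of the replicate 1 score (horizontal axis), with exact 95% binomial intervals as bars. The numbers above give Runx peaks that recurred over Runx peaks in that decile; 3 of 5 recurred in the highest decile, where 47.1% of all peaks did, and 1 of 3 in the ninth, where 16.5% did.

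The serum background was read from the KO list. It had 0 peaks in the windows and met 0 of the 28 replicate 1 members and 0 of the 4 replicate 2 members. In the whole lists, 0.550% of replicate 1 peaks and 5.41% of replicate 2 peaks met a KO peak, and at those shares 0.154 and 0.216 members would have done so. The KO list was thus too short to show the Runx sites to be free of KO signal. The KO peak nearest to the Runx1 window was 7.78 Mb to its left, and that nearest to the Runx2 window 2.49 Mb to its right. On chromosome 4, which carries Runx3, the KO list had no peak. The KO list has the same leading number in its deposited name as that of WT replicate 2, and WT replicate 1 has another. What that number marks is not known; if it is that of a batch, batch and WT replicate cannot be told apart.

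The 3 windows together had more peaks per Mb than elsewhere in both WT lists. The Poisson intervals below treat peaks as independent, but the replicate 1 peaks were clustered. Of 5852 pieces of 450 kb, 3342 held no replicate 1 peak and the fullest held 22. The intervals are therefore likely too narrow and are no test of a window. In the KO list the windows had 0 peaks per Mb, against 0.0296 in the rest of the autosomes and X, a density at which 0.0331 peaks would be found in the windows. In WT replicate 1 the 3 windows together had 25.0 peaks per Mb (exact 95% Poisson interval 16.6 to 36.1), against 3.02 per Mb elsewhere, a ratio of 8.28 (5.5 to 12). By gene, the density was 33.3 per Mb (18.7 to 55.0) for Runx1, 22.2 (10.7 to 40.9) for Runx2 and 13.6 (2.81 to 39.9) for Runx3, so the order of the genes is not resolved and the Runx3 interval includes the density elsewhere. The rest of the host chromosomes had 2.98 peaks per Mb on chromosome 16, 4.09 on chromosome 17 and 3.27 on chromosome 4. In replicate 2 the density was 2.22 per Mb (0.0563 to 12.4) for Runx1, 6.67 (1.37 to 19.5) for Runx2 and 0 for Runx3. Together the windows had 3.57 peaks per Mb (0.973 to 9.14), against 0.321 elsewhere, a ratio of 11.1 (3.03 to 28.5), which was 20.1 with scores of at least 100. Both ratios rest on the same 4 peaks.

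The same was asked of tiles, the genome cut end to end into pieces as long as each window. Of 5852 tiles of 450 kb, 0.393% held at least as many replicate 1 peaks as the 15 of the Runx1 window and 2.00% at least as many as the 10 of the Runx2 window. Sites in both WT libraries and without a KO peak numbered at least 3, as for Runx2, in 0.991% of the tiles, and at least 1, as for Runx1, in 8.00%. Of 11985 tiles of 220 kb, 8.62% held at least the 3 replicate 1 peaks of the Runx3 window. The windows were chosen around genes and tiles were not, and most tiles hold no peak, so these shares describe how crowded the windows are and are not a test.

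**Figure D4:**
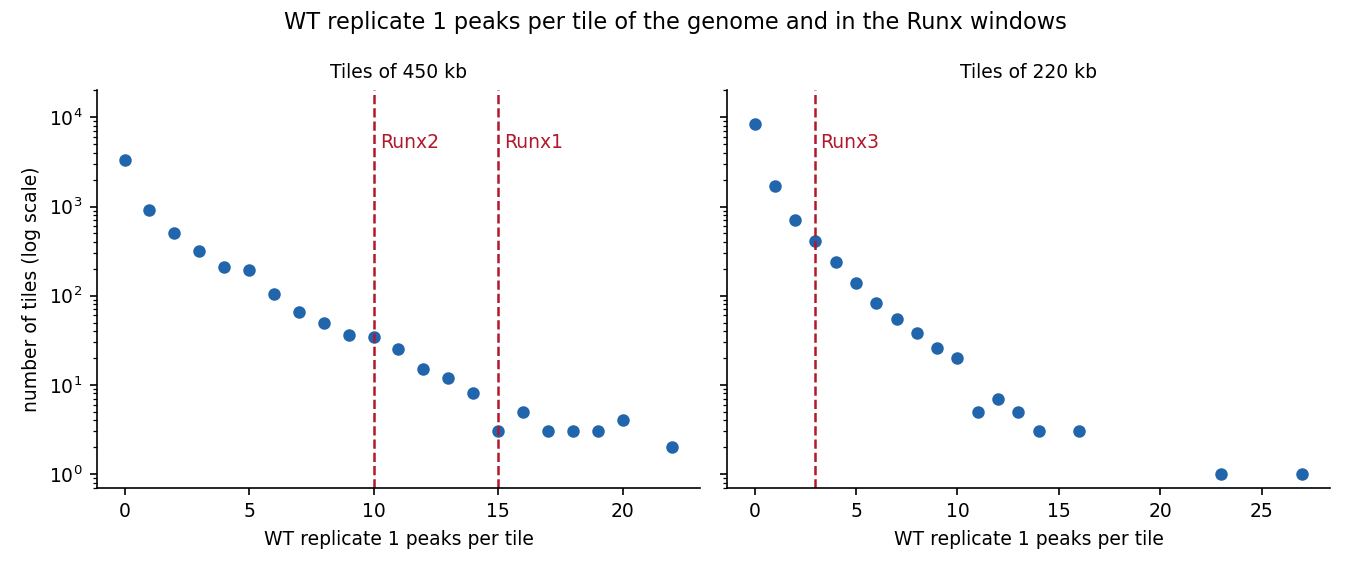
Number of genome tiles (vertical axis, log scale) by count of WT replicate 1 peaks per tile (horizontal axis), for tiles of 450 kb (left) and 220 kb (right). Dashed lines mark the Runx1 window at 15, the Runx2 window at 10 and the Runx3 window at 3 peaks. The first lies far in the tail, and the last at a count reached or exceeded by 8.62% of the 220 kb tiles.

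Within the windows the replicate 1 peaks were unevenly spaced. The 15 Runx1 peaks spanned 340 kb with a median gap of 17.8 kb, and 2 of the gaps were within 1 kb. The closest pair, 8 bp apart, was the strongest Runx1 peak and its neighbour at 92826142 to 92826345, which scored 107.26. With a step of at most 20 kb, chosen after the values were seen, 7 of the Runx1 peaks formed a group of 26.7 kb from 92799598 to 92826345, with scores of 84.47 to 403.70. Groups of at least 7 peaks made up 1.06% of the 5367 groups of the replicate 1 list. This densest part of the Runx1 window held no replicate 2 peak, as did 20 of the 57 groups of that size, or 35.1%. The shared Runx1 site lay outside it, with 1 weak peak within 20 kb that scored 73.62.

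The Runx2 peaks spanned 280 kb with a median gap of 17.3 kb, and none of their gaps was within 1 kb. Their largest group by the same step had 4 peaks over 32.8 kb, from 44839947 to 44872777, with scores of 93.46 to 259.28 and no replicate 2 peak. Groups of at least 4 peaks were 5.12% of all groups, and 55.6% of those lacked a replicate 2 peak. The shared Runx2 sites stood elsewhere: 1 in a group of 3 peaks over 19.9 kb, where its neighbours scored 104.45 and 81.99, and the other 2 with no peak within 20 kb. The 3 Runx3 peaks were 34.5 kb and 88.7 kb apart.

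The windows also hold sequence beyond the Runx genes, so a peak in a window is not assigned to a promoter, an intron or a neighbouring gene. RefSeq places the 3 genes on the same chromosomes in GRCm38.p6 as the windows in mm9. Its nearest protein-coding neighbours are Clic6 and Setd4 for Runx1, Clic5 and Supt3 for Runx2, and Syf2 and Clic4 for Runx3. At the window edges, the outermost Runx1 peaks scored 78.30 and 79.86, 25.0 kb and 85.2 kb from the edges, and the nearest replicate 1 peaks outside scored 98.73, at 198 kb to the left, and 73.62, at 45.5 kb to the right. For Runx2 the outermost peaks scored 516.58 and 93.46, 43.2 kb and 127 kb from the edges, and the nearest outside scored 73.62, at 378 kb, and 84.76, at 644 kb. For Runx3 they scored 78.20 and 175.56, 55.8 kb and 40.5 kb from the edges, and the nearest outside scored 138.23, at 251 kb, and 107.66, at 28.9 kb. The Runx2 peaks thus stood alone, with no further replicate 1 peak within 378 kb of the window on either side.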

How the data were processed

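Peak lists of 3 T-bet ChIP-seq libraries were used, grouped by their titles. The authors made them with CASAVA, Bowtie2 and MACS 1.4 on build mm9, per the submitters' processing notes. Settings, filters and the control behind each call were not given in the sources used here. Replicates were not pooled. The last of 5 columns is the score deposited by the authors, a value of the peak caller on an unstated scale; depth is unknown. Positions are counted from 1.

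A shared peak overlapped by at least 1 bp. Shares carry exact (Clopper-Pearson) and densities exact Poisson 95% intervals, for counting error only. Chromosome lengths came from GenomeInfoDb 1.38.1 (R 4.3.3); Python 3.11.15, numpy 2.4.6, scipy 1.17.1, pandas 2.3.3 and matplotlib 3.10.9 did the rest. Overlap counting was checked on shifted copies of WT replicate 1 peaks and on a small made-up list, a check of the code and not of the data. No test across samples was run.

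The windows, members and lists were chosen with earlier results of these data known. By rule, every shared site and every WT replicate 2 and KO peak is given, and of the unshared WT replicate 1 peaks the 3 highest per window. Other Runx pathway genes (Cbfb, Foxp3, Ifng and others) were not counted, for want of an mm9 annotation. Promoter sequences are from RefSeq (GRCm38.p6), and positions were not converted between builds. Alternatives changed the score minimum, overlap rule, joining of peaks, list length, KO width, window edges and WT replicates.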

Additional observations from a re-analysis of the deposited data

How the results depend on the processing

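Of 54 alternatives, 50 stayed within the tolerance of the reported values: 1.5 times a count, or the 95% interval of a share, ratio or median rank. Those intervals rest on few peaks and are wide, so staying within them says little on stability. For instance, the WT replicate 2 density ratio stayed within tolerance when it went from 11.1 to 20.1. A score of at least 100 left 15 of the 28 WT replicate 1 peaks, against 4582 of all 7996. The median WT replicate 2 member then outscored 69.9% of its shortened list, against 83.3%. Both changes follow from the removal of weak peaks. Under the same minimum the median WT replicate 1 member outscored 74.7% of its list, against 45.4%, a change that also stayed within the tolerance. With WT replicate 1 cut to the length of WT replicate 2, 50.0% of its Runx peaks were met, against 46.3% of all peaks of the cut list, and 3 shared sites were left. The WT set without KO peaks ranged from 4 peaks without replicate 1 to 28 without replicate 2, and the shorter list fixes it. The KO count in the windows was 0 under every alternative tried. None of them could change it, since the KO peak nearest to any window lay 2.49 Mb away. The same holds for WT members met by KO. Both results are among the 54 alternatives and add nothing on stability. No paired analysis was possible because the KO group has 1 library and the inputs were not analysed here. Unknown depth limits every statement on a missing peak.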

Other observations

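The neighbourhoods of the 3 genes resemble one another in gene order. In RefSeq, a gene of the chloride intracellular channel family lies directly beside each Runx gene among protein-coding genes: Clic6 beside Runx1, Clic5 beside Runx2 and Clic4 beside Runx3. A gene of the calcineurin regulator family follows further out on the same side, namely Rcan1, Rcan2 and Rcan3. Whether T-bet peaks differ between these neighbourhoods cannot be read from the counts, since the intervals of their peak densities overlap. The Runx3 window, at 220 kb, is also shorter than the Runx1 and Runx2 windows, at 450 kb each.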
